A study of Rattus norvegicus with 9 samples.

Results

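The 2 genes described here, Atp1b1 and Fxyd2, encode the beta-1 subunit and the gamma subunit of the sodium-potassium ATPase, the sodium pump of the renal tubule. They were taken by symbol from the 11235 genes of the deposited FPKM table (FPKM, fragment counts scaled to transcript length and library depth), out of 30454 gene IDs in the deposited count table, and both were measured in all 9 libraries. The libraries were made from poly(A) RNA of wild-type Sprague-Dawley rat kidney with 3 libraries in each of 3 groups. Sham rats underwent the operation alone. I/R stands for ischaemia-reperfusion, in which renal blood flow was stopped for 45 min and then restored, and I/R + rapamycin for that injury in rats given rapamycin, an inhibitor of the mTOR kinase. The labels did not settle how the sequenced animals were treated. In the series text the rats were male and rapamycin was given intraperitoneally at 1 mg/kg per day, whereas in the sample protocols both sexes, aged 6 to 8 weeks, were dosed by gavage with 1 or 2 mg/kg per day and studied at 3 or 7 days. The comparisons ask how the injury, and rapamycin on top of it, affected kidney transcripts. Replicates were numbered and not described as separate animals, and each p-value therefore rests on library-to-library spread, which may be technical.

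The sodium pump sits in the basolateral membrane of tubule cells and exports sodium in exchange for potassium at the cost of ATP. The alpha subunit carries the ion sites and splits ATP, while the beta subunit is a glycoprotein needed for folding, assembly and delivery of the pump to the membrane. FXYD proteins are small single-span membrane proteins that associate with the pump and tune its affinity for ions, and the gamma subunit Fxyd2 is the main one in kidney, where mutations affecting it cause renal magnesium wasting. Ischaemia starves the pump of ATP and disturbs its basolateral position in proximal tubule cells.

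The deposited FPKM table listed Atp1b1 as ENSRNOG00000002934 on chromosome 13, minus strand, with 2 transcripts, and Fxyd2 as ENSRNOG00000016469 on chromosome 8, plus strand, with 3 transcripts. Another FXYD gene, Fxyd6, lies on the same strand as Fxyd2 and ends 6945 bases before its start. Dividing counts by FPKM gave the transcript length implied by the authors' scaling, 2956 bases for Atp1b1 and 1316 bases for Fxyd2. Both members passed the filter on low counts, as did 17335 genes in all.

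The library with the fewest counts, I/R + rapamycin 1, held 44582251, and the one with the most, sham 3, held 60538627. All 10 proximal tubule markers and all 8 thick ascending limb markers were present, the first summing to 11758 to 15551 CPM (counts scaled to library size) and the second to 3872 to 6405 CPM over the 9 libraries, so the labelled source, which names both kidney and renal tubular cells, was met by its markers. Podocyte markers (6 of 6; 501 to 829 CPM), endothelial markers (7 of 7; 551 to 640 CPM), fibroblast markers (6 of 6; 326 to 800 CPM) and macrophage markers (6 of 6; 511 to 831 CPM) were present too. The podocyte sum was 794 to 829 CPM in sham, above the 526 to 763 CPM in I/R and 501 to 713 CPM in I/R + rapamycin. The macrophage sum was 601 to 685 CPM in sham, 511 to 565 CPM in I/R and 512 to 831 CPM in I/R + rapamycin, so I/R lay below sham. Endothelial and fibroblast sums overlapped between the groups. No marker with a symbol was at 0 in any library, and none of the 5 adrenal cortex or 5 muscle markers had a symbol in the table. Symbols were given only to genes that reached 1 FPKM in 8 or more of the 9 libraries. A marker with a symbol was therefore all but bound to be above 0, and one without may still have had reads. Sham 3, I/R 2 and I/R 3 had high Fos (260 to 512 CPM), and sham 1, I/R 1 and the 3 rapamycin libraries had low Fos (14.1 to 34.4 CPM), with sham 2 at 200 CPM, which splits the sham and I/R groups.

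Atp1b1 was one of the most abundant transcripts of the kidney. Its deposited level was 1044, 1055 and 1035 FPKM in sham 1, 2 and 3, 1150, 1039 and 1078 FPKM in I/R 1, 2 and 3, and 1083, 1027 and 1062 FPKM in I/R + rapamycin 1, 2 and 3. The ranges of the 3 groups overlapped, with I/R 1 highest and I/R + rapamycin 2 lowest. Group means were 1045 ± 10.3 FPKM in sham, 1089 ± 56.7 in I/R and 1058 ± 28.4 in I/R + rapamycin (SD, n = 3), and neighbours in the order I/R, I/R + rapamycin, sham did not differ beyond their spread. Its mean placed it at rank 31 of 11235 genes by FPKM, and between 29 and 34 in single libraries.

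Fxyd2 was listed at 617, 680 and 569 FPKM in the sham libraries, 584, 637 and 664 FPKM in the I/R libraries, and 826, 713 and 712 FPKM in the rapamycin libraries. All 3 rapamycin libraries were above all 6 others, and sham and I/R overlapped. Group means were 622 ± 55.6 FPKM in sham, 628 ± 40.8 in I/R and 750 ± 65.3 in I/R + rapamycin (SD, n = 3), so sham and I/R, neighbours in the order, did not differ beyond their spread. The gene stood at rank 46 of 11235 by mean FPKM, and between 38 and 57 in single libraries.

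**Figure D1:**
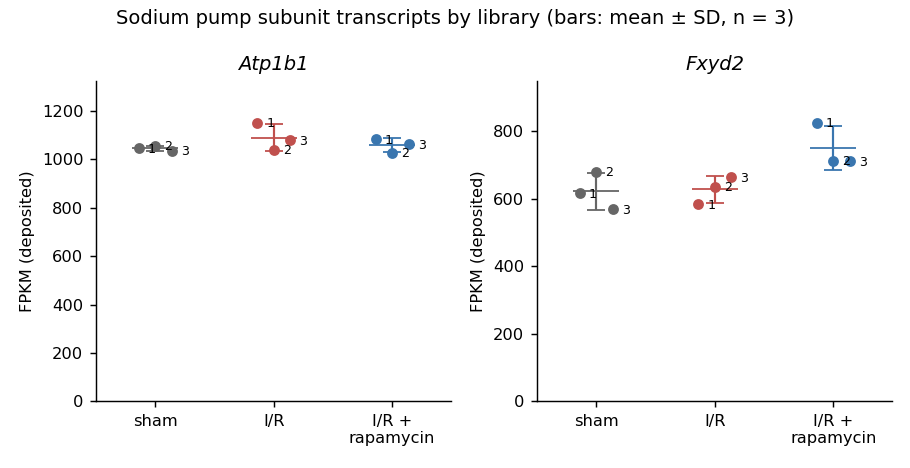
Deposited FPKM of Atp1b1 and Fxyd2 in each library, grouped as sham, I/R and I/R + rapamycin, with points numbered by replicate and bars giving the mean ± SD (n = 3). Atp1b1 lies between 1027 and 1150 FPKM throughout, and the 3 rapamycin libraries of Fxyd2 lie between 712 and 826 FPKM above all others.

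Atp1b1 was also one of the steadiest transcripts. On the library-size-scaled CPM used for testing, it measured 2963, 3190 and 3044 CPM in sham 1 to 3, 3225, 3136 and 3071 CPM in I/R 1 to 3, and 3311, 3167 and 3127 CPM in I/R + rapamycin 1 to 3. The highest library was 1.12 times the lowest. The SD of its log2 CPM over all 9 libraries was 0.05, against a median of 0.18 over the 11294 genes with a mean of at least 5 CPM, and 26 of those genes (0.230%) had a smaller one. Among the 1719 genes with a mean of at least 100 CPM, 0.291% had a smaller SD. On deposited FPKM the share was 0.405% (42 of 10380 genes), and with median-of-ratios scaling it was 0.168%, so the place near the steadiest end did not rest on one scale. Fxyd2 lay in the middle of all genes, with an SD of 0.20 that was above that of 58.1% of them and a highest library 1.54 times the lowest. That share was 44.0% on deposited FPKM, 46.1% on counts per total count and 56.4% with median-of-ratios scaling. Its side of the median therefore depended on the scale.

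**Figure D2:**
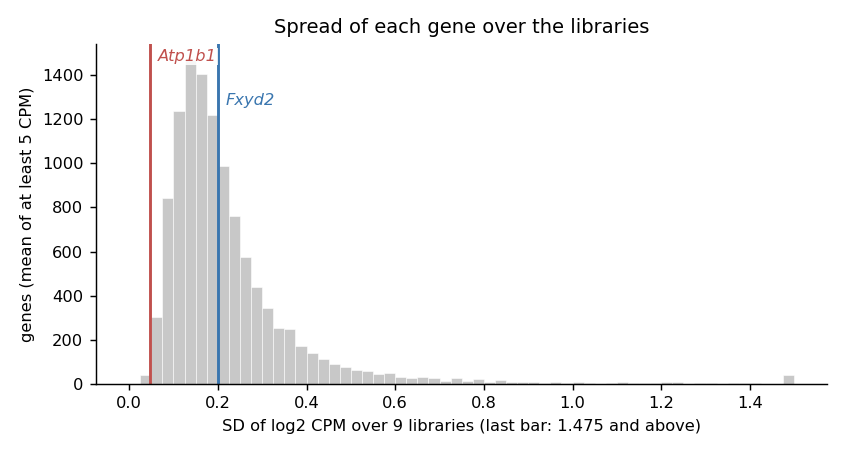
Number of genes (mean of at least 5 CPM, 11294 genes) by the SD of their log2 CPM over the 9 libraries, with vertical lines for Atp1b1 and Fxyd2. The line for Atp1b1 at 0.05 stands at the left edge of the distribution, and that for Fxyd2 at 0.20 stands to the right of the median of 0.18.

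After I/R alone, neither subunit differed from sham beyond the spread between libraries. The mean of Atp1b1 was 3066 ± 115 CPM for sham libraries and 3144 ± 77.3 CPM for I/R libraries (SD, n = 3), a log2 fold change of 0.04 (SE 0.10; 95% confidence interval -0.18 to 0.26; adjusted p = 0.943, edgeR's quasi-likelihood test with Benjamini-Hochberg adjustment over all genes tested). The interval corresponds to 0.881-fold to 1.19-fold, so changes beyond those sizes lie outside it. The mean of Fxyd2 was 814 ± 89.8 CPM for sham libraries and 809 ± 69.8 CPM for I/R libraries, a log2 fold change of -0.01 (SE 0.12; interval -0.28 to 0.26; adjusted p = 0.990, edgeR). Neither member was called among the 0.0577% of genes that passed an adjusted p of 0.05, nor with DESeq2, which called 1.34%. Neither had groups that did not overlap, which 14.6% of all genes had. The sign of the Fxyd2 value turned with several settings and was not stable.

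With rapamycin, Fxyd2 was higher than in I/R in 3 of 3 libraries and Atp1b1 overlapped. Fxyd2 measured 729, 856 and 843 CPM in I/R 1, 2 and 3 and 1123, 979 and 933 CPM in I/R + rapamycin 1, 2 and 3, and the groups did not overlap. The fold change was 1.25 (95% confidence interval 1.04 to 1.51; log2 0.32, SE 0.12), with an unadjusted p of 0.0244 and an adjusted p of 0.246 in edgeR's quasi-likelihood test, and it did not pass the threshold. DESeq2 gave an adjusted p of 0.0896. As background, 0.127% of all genes were called by edgeR and 3.92% by DESeq2, 7.11% had an unadjusted p under 0.05 in the higher direction, and in 11.8% every rapamycin library was above every I/R library, so being apart in this way was common. Atp1b1 averaged 3202 ± 96.7 CPM with rapamycin, a log2 difference of 0.03 from I/R (SE 0.10; interval -0.19 to 0.25; adjusted p = 0.927, edgeR), and its sign turned on the FPKM scale, where the rapamycin mean was the lower one.

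Against sham, which shares its rapamycin libraries with the comparison above, Fxyd2 was again higher in 3 of 3 rapamycin libraries. Sham 1, 2 and 3 measured 780, 915 and 746 CPM, below the lowest rapamycin library at 933 CPM. The fold change was 1.24 (log2 0.31, SE 0.12, interval 0.04 to 0.59), with an unadjusted p of 0.0273 and an adjusted p of 0.301 (edgeR), and an adjusted p of 0.132 with DESeq2. In this comparison edgeR called 0.156% of genes and DESeq2 3.17%, 6.06% had an unadjusted p under 0.05 in the higher direction, and 9.69% had every rapamycin library above every sham library. Atp1b1 differed by 0.06 (log2, SE 0.10; interval -0.16 to 0.28; adjusted p = 0.824, edgeR).

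Fxyd2 has a short transcript, and in these libraries fold changes moved with length. Across 11232 genes the Spearman correlation between the log2 fold change and the implied length was 0.30 for I/R against sham, -0.48 for I/R + rapamycin against I/R and -0.26 for I/R + rapamycin against sham; genes are not independent replicates, and these are descriptions. The 438 genes within 10% of the length of Fxyd2 had a median log2 difference of 0.20 between I/R + rapamycin and I/R (quartiles 0.05 and 0.31), and 78.3% of them were below the 0.32 of Fxyd2. Their median was 0.10 against sham, where 84.7% lay below Fxyd2, and -0.10 for I/R against sham. Around Atp1b1, whose length is near the middle, 1417 genes had medians of -0.02, 0.04 and 0.03 in the 3 comparisons, close to its own values.

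When the trend with length was removed in each library, Fxyd2 measured 825, 862 and 789 CPM in sham 1, 2 and 3, 861, 890 and 915 CPM in I/R 1, 2 and 3, and 1017, 930 and 940 CPM in I/R + rapamycin. The rapamycin libraries remained above the others by a smaller margin. The log2 difference from I/R became 0.11 (adjusted p = 0.611, edgeR) and that from sham 0.22 (adjusted p = 0.272, edgeR). What lay behind the length trend was not tested.

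**Figure D3:**
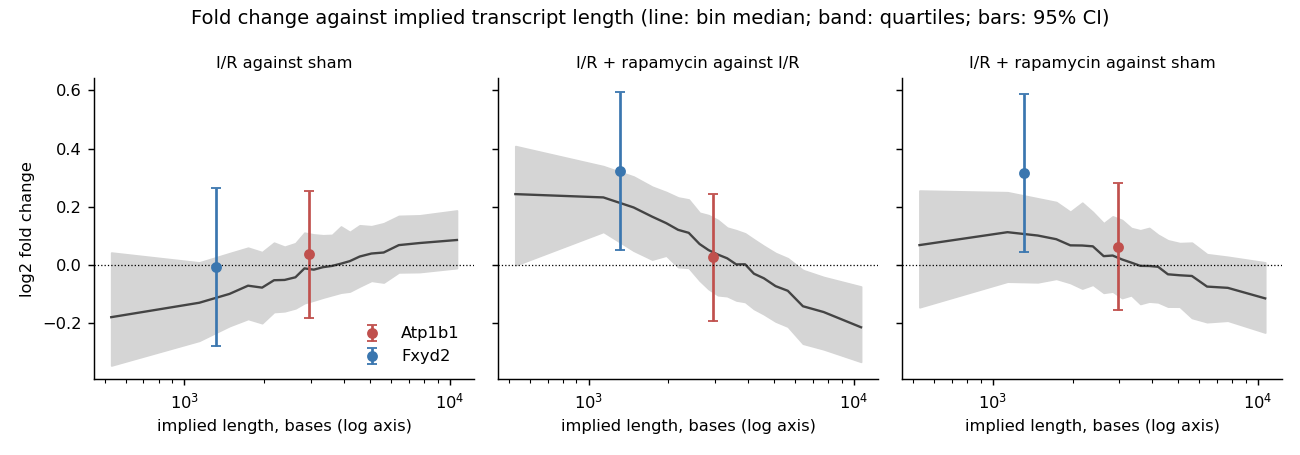
Log2 fold change against implied transcript length (log axis, bases) in the 3 comparisons, with the line giving the median and the grey band the quartiles of genes binned by length, and the points giving Atp1b1 and Fxyd2 with 95% confidence intervals. Fxyd2 lies above the median of genes of its length in each panel, with values of -0.01, 0.32 and 0.31, and Atp1b1 lies near the line at 0.04, 0.03 and 0.06.

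The level of Fxyd2 per Atp1b1 within a library does not depend on library size. On the FPKM scale the ratio was 0.591, 0.644 and 0.550 in sham 1, 2 and 3, 0.508, 0.613 and 0.616 in I/R 1, 2 and 3, and 0.762, 0.694 and 0.670 in I/R + rapamycin 1, 2 and 3. The 3 rapamycin ratios were the highest of the 9, and the lowest was that of I/R 1. Means were 0.595 ± 0.0473 in sham, 0.579 ± 0.0618 in I/R and 0.709 ± 0.0476 in I/R + rapamycin (SD, n = 3). The ratio with rapamycin was 1.23-fold that in I/R (log2 0.30) and 1.19-fold that in sham (log2 0.25), each with p = 0.1 in an exact two-sided permutation test, the smallest p that 3 against 3 libraries allow, and 0.15 after Benjamini-Hochberg adjustment over 3 comparisons. For I/R against sham the log2 difference was -0.04 (exact permutation p = 0.7). With the length trend removed, the log2 differences with rapamycin were 0.13 and 0.19.

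**Figure D4:**
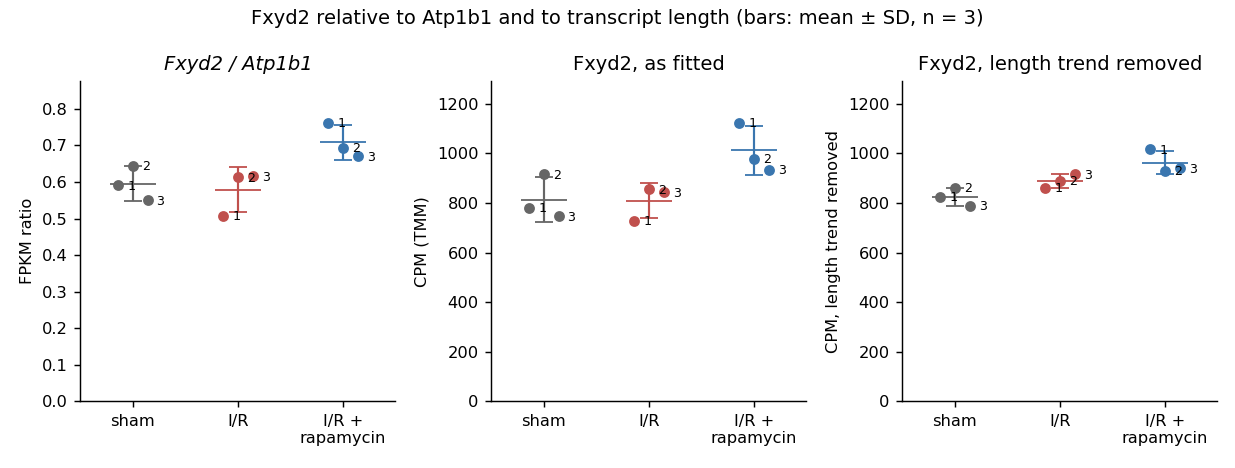
Left, FPKM of Fxyd2 divided by FPKM of Atp1b1 in each library; middle, CPM of Fxyd2; right, CPM of Fxyd2 after each library's trend with transcript length was removed; points are numbered by replicate and bars give the mean ± SD (n = 3). The rapamycin libraries are the highest in each panel, at 0.670 to 0.762 on the left, 933 to 1123 CPM in the middle and 930 to 1017 CPM on the right.

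Among the beta subunits, Atp1b1 held 94.7% to 95.9% of the summed FPKM in every library. Atp1b3, a beta subunit of wide tissue range, measured 90.3, 93.3 and 78.1 CPM in the sham libraries, 83.0, 86.0 and 94.4 CPM in I/R 1, 2 and 3, and 114, 99.0 and 98.6 CPM in the rapamycin libraries. Its rapamycin libraries were above the other 6, like those of Fxyd2, with log2 differences of 0.24 from I/R (SE 0.10; adjusted p = 0.267, edgeR) and 0.25 from sham (adjusted p = 0.301, edgeR), neither past the threshold. The implied length of Atp1b3 was 1956 bases. Genes binned around 1961 bases had a median of 0.14 and an upper quartile of 0.25 in the comparison with I/R. In the comparison with sham these were 0.07 and 0.18. Atp1b2, best known from glia, stayed between 12.0 and 15.6 CPM.

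Among FXYD genes, Fxyd2 held 90.5% to 93.4% of the summed FPKM. Fxyd6, its upstream neighbour, was listed at 35.6, 30.8 and 30.8 FPKM in sham, 36.0, 30.0 and 47.8 FPKM in I/R, and 55.2, 35.7 and 33.7 FPKM in I/R + rapamycin, with overlapping groups and a log2 difference of 0.41 between rapamycin and sham (adjusted p = 0.417, edgeR). Fxyd4, which modulates the pump in the collecting duct, stood at 28.1 CPM in I/R + rapamycin 1, 16.6 CPM in I/R 3, and between 9.63 and 12.4 CPM in the other 7 libraries. The rapamycin mean of Fxyd4 therefore rested on 1 library. I/R + rapamycin 1 was also the highest library of Fxyd6 (55.2 FPKM) and of Fxyd2 (1123 CPM). For Fxyd2, the other rapamycin libraries were also above every sham and I/R library. With I/R + rapamycin 1 left out, the Fxyd2 log2 difference was 0.24 from I/R and 0.23 from sham. Fxyd1, known as phospholemman, ranged from 3.20 to 5.28 CPM and Fxyd5, known as dysadherin, from 6.70 to 10.8 CPM.

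**Figure D5:**
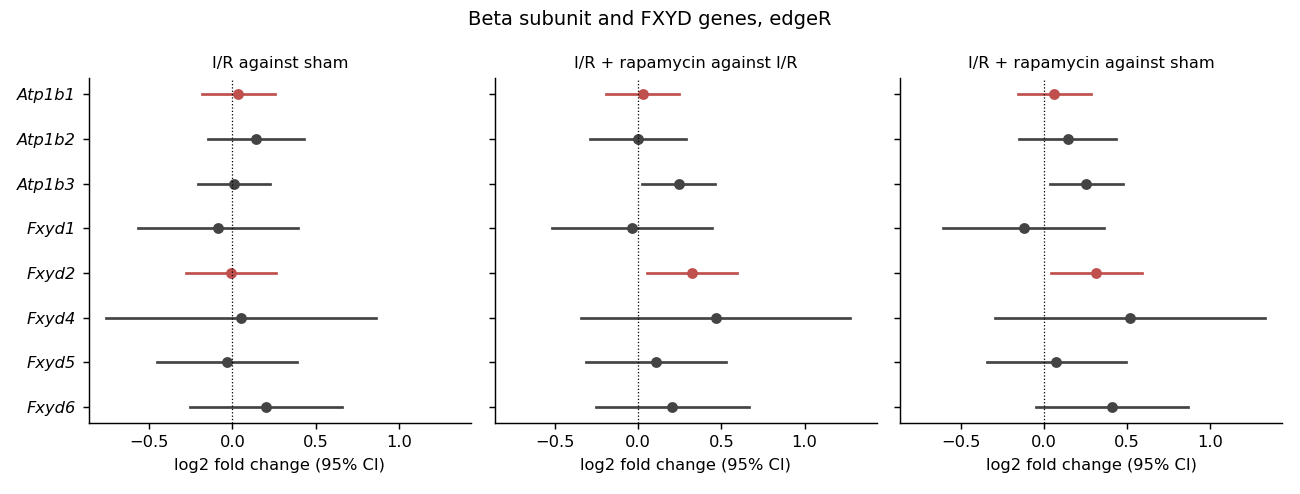
Log2 fold changes with 95% confidence intervals (edgeR, n = 3 libraries per group) of 3 beta subunit genes and 5 FXYD genes with a symbol in the table, in the 3 comparisons, with Atp1b1 and Fxyd2 in red. Only the intervals of Fxyd2 and Atp1b3 leave out 0, in both comparisons with rapamycin, and none of these genes passed the adjusted threshold. The fold changes are not corrected for the trend with transcript length.

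The wider list of genes around the pump, covering its subunits, regulators, the apical sodium entry routes it drives, basolateral exit and potassium recycling, other P-type ATPases and stress genes, held 109 genes, of which 91 were tested. None was called by edgeR in any comparison. At an unadjusted p under 0.05, 8 were higher and 5 lower in I/R than in sham, where 4.83% and 4.59% of all genes were. In I/R + rapamycin against I/R, 2 were higher, Fxyd2 and Atp1b3, and 17 lower, beside 7.11% and 9.14% of all genes. Against sham, 6 were higher and 21 lower, beside 6.06% and 7.75% of all genes. Shares of all genes are over the 17335 tested, including genes without a symbol, which could not be on the list. DESeq2 called 1, 11 and 11 of the 91 list genes, all lower in the comparison with I/R and 10 of the 11 lower in that with sham, beside 1.34%, 3.92% and 3.17% of all genes called by it in either direction. Of the calls with rapamycin, 2 against I/R and 4 against sham were stress and immediate early genes. The lists were chosen with earlier results of these data known, so the counts are descriptions. The median log2 fold change of the 91 was 0.05, -0.12 and -0.11, with medians over all tested genes between 0.00 and 0.01. These medians, the DESeq2 calls and the counts at an unadjusted p were not corrected for the length trend described above. The part of that trend in them was not tested.

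Of the 25 pump regulators, 23 were tested. Sik1, a salt-inducible kinase that acts on the pump, averaged 60.0 ± 2.75 CPM in sham, 71.2 ± 14.4 CPM in I/R and 29.6 ± 9.76 CPM in I/R + rapamycin (SD, n = 3), with a log2 difference of -1.27 from I/R (SE 0.24; adjusted p = 0.0918 with edgeR and 7.01e-06 with DESeq2). Sgk1, the aldosterone-induced kinase that raises sodium transport, averaged 324, 435 and 498 CPM in the 3 groups, with log2 differences of 0.42 between I/R and sham (adjusted p = 0.472, edgeR) and 0.62 between I/R + rapamycin and sham (adjusted p = 0.176 with edgeR and 0.0154 with DESeq2).

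All 15 apical sodium entry genes were tested. Scnn1a, the alpha subunit of the epithelial sodium channel, averaged 98.7 ± 7.39 CPM in sham, 80.2 ± 0.854 CPM in I/R and 76.9 ± 9.31 CPM in I/R + rapamycin, with log2 differences from sham of -0.30 (adjusted p = 0.385, edgeR) and -0.36 (adjusted p = 0.178 with edgeR and 0.0447 with DESeq2). Slc12a3, the thiazide-sensitive cotransporter of the distal convoluted tubule, where Fxyd2 is also expressed, averaged 495, 395 and 321 CPM, a log2 difference of -0.63 between I/R + rapamycin and sham (adjusted p = 0.220 with edgeR and 0.0464 with DESeq2). The sodium-coupled phosphate cotransporter Slc34a3 averaged 137, 172 and 172 CPM and the amino acid cotransporter Slc6a19 averaged 165, 232 and 194 CPM in sham, I/R and I/R + rapamycin, so both means were above sham in the other groups. For both genes the I/R and sham libraries overlapped, and neither passed the threshold in that comparison (adjusted p = 0.525 and 0.400, edgeR). Of the apical list, 2 of 15 fitted values lay above 0 with rapamycin relative to I/R (median -0.09) and 7 of 15 relative to sham (median -0.02). All 16 basolateral exit and potassium recycling genes were tested. Slc4a4, the basolateral sodium bicarbonate cotransporter of the proximal tubule, averaged 276 ± 57.5, 372 ± 23.5 and 186 ± 72.0 CPM, 0.501-fold in I/R + rapamycin relative to I/R (adjusted p = 0.162 with edgeR and 0.00417 with DESeq2). Kcnj10, which recycles potassium for the pump, had a log2 difference of -0.38 between I/R + rapamycin and sham (adjusted p = 0.239, edgeR). Of the basolateral list, 2 of 16 fitted values lay above 0 in the comparison with I/R and 3 of 16 in that with sham. Over all tested genes the median log2 fold change was 0.01 in the comparison with I/R and 0.00 in that with sham. The counts of fitted values above 0 in both lists were not corrected for the length trend. Its part in them was not tested.

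Among the other P-type ATPases, 16 of 20 were tested. Atp13a3, a polyamine transporter, averaged 82.2 ± 2.18, 114 ± 7.95 and 83.1 ± 9.54 CPM in sham, I/R and I/R + rapamycin, with log2 differences of 0.47 between I/R and sham (adjusted p = 0.188 with edgeR and 0.00425 with DESeq2) and -0.46 between I/R + rapamycin and I/R (adjusted p = 0.0952 with edgeR and 0.00284 with DESeq2). The calcium pump Atp2b4 had log2 differences of 0.43 and -0.56 in the same comparisons (adjusted p = 0.419 and 0.151 with edgeR and 0.240 and 0.0288 with DESeq2). No H,K-ATPase gene had a symbol in the table. Of the 15 stress and immediate early genes 12 were tested, and Jun, an immediate early transcription factor, averaged 527 ± 279, 437 ± 235 and 116 ± 17.7 CPM, with a log2 difference of -1.92 between I/R + rapamycin and I/R (adjusted p = 0.199 with edgeR and 0.0128 with DESeq2).

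In the marker sums of the 5 tubule segments and cell types that follow, the rapamycin libraries overlapped with both other groups. The proximal tubule sum was 11758 to 15551 CPM in sham, 13151 to 14142 CPM in I/R and 11959 to 13765 CPM in I/R + rapamycin. The thick ascending limb sum was 4401 to 4667, 3872 to 6217 and 4108 to 6405 CPM. Distal convoluted tubule markers (4 of 5 with a symbol, without Pvalb) summed to 845 to 1035, 666 to 980 and 643 to 868 CPM, principal cell markers (7 of 8, without Aqp4) to 683 to 819, 576 to 733 and 645 to 785 CPM, and intercalated cell markers (7 of 7) to 832 to 988, 735 to 884 and 700 to 907 CPM. By single markers, 6 of 8 of the thick ascending limb, a main site of Fxyd2, lay above 0 in I/R + rapamycin against sham (median log2 difference 0.28) and 5 of 8 against I/R (median 0.09). For the distal convoluted tubule it was 1 of 4 in each (medians -0.40 and -0.18), and for the proximal tubule 2 of 10 and 4 of 10 (medians -0.11 and -0.06). Principal cells had 3 of 7 and 4 of 7 (medians -0.24 and 0.17), and intercalated cells 1 of 7 and 3 of 7 (medians -0.12 and -0.03). These counts and medians of single markers were not corrected for the length trend either. The part of these segments in the Fxyd2 values was not tested. The erythrocyte sum (3 of 6) was 245 to 2552, 1242 to 3332 and 84.8 to 524 CPM. In bulk kidney RNA, fewer cells of a type and less RNA per cell cannot be told apart.

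Over the 9 libraries the log2 CPM of Atp1b1 and Fxyd2 had a Pearson correlation of 0.61 and a Spearman correlation of 0.43, as a description of libraries that share depth and length effects. Among 10380 named genes with a mean of at least 5 CPM, those most like Atp1b1 by Pearson correlation were Leprot (0.95), Etfb (0.92), Egfl6 (0.91), Ift52 (0.88) and Itgb1bp1 (0.87). Those most like Fxyd2 were Acads (0.98), Coq9 (0.97), Sergef (0.97), Mrps15 (0.97) and Mtch2 (0.97). Of the beta subunit and FXYD genes, the one nearest to Fxyd2 was Atp1b3, with a Pearson correlation of 0.93 and place 68 of 10379.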

How the data were processed

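Poly(A) RNA was sequenced as paired-end reads, all libraries in batch 1, per the labels' protocols. Among tools, the submitters' processing notes list HISAT2, StringTie, cutadapt and DESeq2 without versions, and as genome build Rnor_6.0. For the annotation, the counting rule and the strand setting the answer is not given in the sources used here, so reads of overlapping or antisense genes cannot be told apart. Gene positions are given by chromosome and strand. The distance between Fxyd6 and Fxyd2 was taken from the listed coordinates, whose build is unsettled. The authors deposited whole-number read counts per Ensembl gene ID. The authors also deposited FPKM values with gene symbols for genes that reached 1 FPKM in 8 or more of the 9 libraries, so only those genes could be named, and a gene without a symbol there was not analysed here.

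Counts were tested in R 4.3.3 with edgeR 4.0.16 (TMM scaling, default filter on low counts, robust quasi-likelihood fit of all 9 libraries by group), and p-values were adjusted by Benjamini-Hochberg over 17335 genes, with calls at an adjusted p under 0.05. The procedure was checked on simulated data. CPM values use TMM-scaled library sizes. Implied length is the count per FPKM and total count. The Fxyd2 to Atp1b1 ratio was tested by exact permutation. Alternatives were DESeq2 1.42.0, other scaling factors and filters, a fit restricted to the 6 libraries of a comparison, the replicate block, limma 3.58.1 on log2(FPKM + 1) or log2(FPKM + 0.1), removal of each library's length trend, and each library left out in turn. A fit without I/R 1 and sham 3 was added after the data were seen. The members and the 21 gene lists were chosen with earlier results of these data known. Genes named are the members, their subunit and FXYD families, up to 4 genes of smallest p in each other list and comparison, and the 5 genes most correlated with each member, apart from a few that are not reported here. Fos, given to describe the libraries, was chosen after its values were seen.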

Additional observations from a re-analysis of the deposited data

How the results depend on the processing

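Of 213 recomputed values, 197 counted as unchanged. For a fold change this meant the same direction and side of the threshold, and for the ratio the same direction alone. For the count of called list genes it meant 0, as in the main fit. Size was not judged: the Fxyd2 difference from I/R counted as unchanged at 0.11 with the length trend removed, against 0.32. No alternative brought Atp1b1 or Fxyd2 past an adjusted p of 0.05. The Fxyd2 log2 difference between I/R and sham turned positive with limma on FPKM + 1 (0.0156) and FPKM + 0.1 (0.0156), after removal of the length trend (0.107) and in the fit without I/R 1 and sham 3 (0.000679), and ranged from -0.0666 to 0.0844 with 1 library left out, positive without sham 2 or I/R 1. The Atp1b1 difference between I/R + rapamycin and I/R turned negative with limma on FPKM + 1 (-0.0410) and FPKM + 0.1 (-0.0411) and with the length trend removed (-0.0197). The log2 ratio of Fxyd2 to Atp1b1 in I/R against sham became 0.0535 with the length trend removed and ranged from -0.0980 to 0.0493 with 1 library left out. The cause was not tested in any of these. With 1 library left out, the Fxyd2 difference from I/R ranged from 0.24 to 0.38 and that from sham from 0.23 to 0.41. Without I/R + rapamycin 1, the unadjusted p of edgeR was 0.106 against I/R and 0.117 against sham. That p also exceeded 0.05 against I/R without I/R 1 (0.0817). Against sham it did so without sham 1 (0.0729) or sham 3 (0.0944).

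DESeq2 called 1, 11 and 11 list genes in the 3 comparisons where edgeR called 0, and without I/R 1 and sham 3 edgeR called 4 in I/R + rapamycin against I/R. Over all genes, edgeR calls went from 10, 22 and 27 to 234, 679 and 557 with DESeq2, 67, 128 and 104 without I/R 1 and sham 3, and 29, 15 and 33 with the length trend removed. With 1 library left out they ranged from 0 (without sham 2 or I/R 3) to 36 (without I/R 1), from 0 (without sham 1 or I/R + rapamycin 1 or 2) to 47 (without I/R 1), and from 3 (I/R + rapamycin 1 left out) to 47 (I/R 1 left out). With the replicate block they were 1, 1 and 7. The replicate block gave 0.32 for Fxyd2 in both comparisons with rapamycin (adjusted p = 0.297 and 0.379, edgeR) and changed no call of the members. Deviations of same-numbered libraries correlated between -0.187 and 0.132, so the numbers were not taken as pairs, and 2 of 9 libraries correlated best with their own number.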
